A study of Mus musculus with 11 samples.

Results

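Expression of 7 genes of mouse chromosome 17 was examined in bulk RNA-seq libraries labelled as cerebellar hemisphere. The genes were Pkmyt1, Rnps1, Btbd9, Glo1, Glp1r, Cyp39a1 and Guca1b, 7 of the 22609 genes listed and of the 17557 tested. They had been chosen by name, with the values of NFKO against all other libraries already known, so every comparison with NFKO describes them and no p-value is given for it. All 7 genes passed the filter of at least 10 counts over all libraries, and only Guca1b was near the detection floor.

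The 11 libraries came from 3 control, 3 NFKO, 2 AnkGKO and 3 DKO mice, untreated, of mixed sex and labelled as littermates. NFKO mice carried Pcp2-Cre and floxed alleles of Nfasc (NfascFx/Fx), which encodes the cell adhesion protein neurofascin, including NF186. AnkGKO mice carried Pcp2-Cre and floxed alleles of Ank3, which encodes the scaffold protein Ankyrin G (AnkGFx/Fx), and DKO mice carried Pcp2-Cre with both pairs of floxed alleles. Control mice were labelled as control, and the series' design text gives them NfascFx/Fx and AnkGFx/Fx without naming Cre. The paper's methods describe them as lacking Cre, with 1 or both genes floxed, although its results text in one place names Pcp2-Cre for them. The Pcp2 promoter drives Cre mainly in Purkinje cells, so the deletion was meant for 1 cell type of a mixed tissue. Age was given as postnatal day 30 in one label and 32 in another, and the background as C57BL/6J in one and mixed C57BL/6J;129 in another. The same replicate number in different genotypes is not explained by the labels.

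Between 38890851 and 55822361 reads were counted on genes in each library, and 32.5 to 34.3% of reads, left out of these totals, aligned to more than 1 place. Expression is given in CPM, which are counts scaled to a common library size after TMM normalization, and a floor of 3 counts corresponds to 0.0546 to 0.0780 CPM. Ank3 was at 353 to 375 CPM in control, 385 to 407 in NFKO, 156 and 200 in AnkGKO and 160 to 185 in DKO, while Nfasc in NFKO (622 to 701 CPM) overlapped control (661 to 718 CPM). Nfasc was at 717 and 953 CPM in AnkGKO and at 559 to 606 CPM in DKO, below every control and NFKO library. The tissue label was checked with markers, some of which went against it in most libraries. Pcp2, a defining gene of Purkinje cells, reached 26.3 CPM for control 1 and 28.3 for NFKO 1. It was at 1.43 in control 2 and 2.14 in NFKO 2, and at no more than 0.374 in the other 7 libraries. The 5 Purkinje cell genes tested, Pcp2 among them, summed to 262 to 1165 CPM, and Calb1 alone was at 30.6 to 125 CPM. Summed over 6 granule cell genes, expression ranged from 107 to 611 CPM, and 5 Hox genes of the caudal nervous system, which the cerebellum is known to lack, summed to 277 to 490 CPM in every library. The values below are therefore those of libraries labelled as cerebellar hemisphere. Xist, the RNA of the inactive X chromosome, was at no more than 1.39 CPM in the 3 NFKO libraries, both AnkGKO libraries and control 3, at 28.4 CPM in DKO 1 and at 459 to 598 CPM in the other 4 libraries. Xist thus differed between the NFKO group and most control and DKO libraries, and its values are set beside the results by control 3 and by a fit with Xist as a covariate.

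The 7 genes are known for unrelated functions. Glo1 encodes glyoxalase 1, which with glutathione detoxifies methylglyoxal, a reactive by-product of glycolysis, and in mice its expression in the brain is known to differ between inbred strains, some of which carry a duplicated stretch of chromosome 17 that includes Glo1. DNA copy number was not measured in these samples. Btbd9 encodes a BTB-domain protein that binds cullin-3 and is linked to restless legs syndrome. Glp1r is the receptor of the incretin hormone GLP-1. Rnps1 encodes an RNA-binding protein of the exon junction complex, Pkmyt1 a kinase that inhibits Cdk1 before mitosis, Cyp39a1 an oxysterol 7-alpha-hydroxylase and Guca1b a calcium-sensing activator of guanylate cyclase best known from photoreceptors.

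On the GRCm39 build (GENCODE vM39), the genes lay on the proximal part of chromosome 17 in this order. Pkmyt1 lay at chr17:23945254-23955710 (plus strand) and Rnps1 at chr17:24633504-24645325 (plus strand). Btbd9 at chr17:30434498-30795517 (minus strand), Glo1 at chr17:30803910-30845845 (minus strand) and Glp1r at chr17:31120525-31159765 (plus strand) were close neighbours. Cyp39a1 lay at chr17:43978281-44062322 (plus strand) and Guca1b at chr17:47696301-47703910 (plus strand). The values below are reads over the exons of each whole gene. Neither targeted gene is on this chromosome, Nfasc being on chromosome 1 and Ank3 on chromosome 10.

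Glo1 and Glp1r, neighbouring genes with different values in NFKO, were the only 2 of the 7 members with a promoter in the set used here. Their promoter sequences are shown. They were taken from RefSeq on GRCm38.p6, from 250 bases before to 50 bases after the start, 5′ to 3′ on the gene's strand, with GC boxes (GGGCGG or CCGCCC) and CCAAT boxes (CCAAT or ATTGG), found by an exact search of both strands, in capitals. Glo1 (chr17:30612610-30612909, minus strand) and Glp1r (chr17:30901617-30901916, plus strand) read as follows.
Glo1: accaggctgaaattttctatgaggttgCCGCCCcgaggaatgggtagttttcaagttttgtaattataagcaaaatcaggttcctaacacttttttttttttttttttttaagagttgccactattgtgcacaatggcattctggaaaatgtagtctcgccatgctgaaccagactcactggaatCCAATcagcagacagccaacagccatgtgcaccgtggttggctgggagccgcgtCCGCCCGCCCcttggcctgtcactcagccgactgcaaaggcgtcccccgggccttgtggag
Glp1r: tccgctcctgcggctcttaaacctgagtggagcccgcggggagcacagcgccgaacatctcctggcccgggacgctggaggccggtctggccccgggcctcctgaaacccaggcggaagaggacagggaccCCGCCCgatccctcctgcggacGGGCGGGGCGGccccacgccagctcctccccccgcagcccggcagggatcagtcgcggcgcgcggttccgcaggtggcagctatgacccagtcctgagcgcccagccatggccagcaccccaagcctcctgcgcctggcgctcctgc
The Glo1 window held 11 CpG dinucleotides and a GC content of 49.7%, and that of Glp1r held 29 and 73.7%. In each window 3 GC boxes were found, of which those of Glo1 at -11 and -7, counted from the start, and those of Glp1r at -97 and -92 overlap, and a CCAAT box was found only in that of Glo1, at -65. Of 32851 promoters of the same length, 35.7% held a GC box and 37.4% a CCAAT box. The TATA box (TATAAA) and the antioxidant response element (TGACNNNGC), which 13.6% and 12.4% of promoters held, were not in either window as spelled here. Promoter sequences of the other 5 genes were not in the set used.

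In NFKO, Glo1 was at about 2-fold the level of every other genotype, Rnps1, Pkmyt1 and Cyp39a1 were at 0.338 to 0.561 of the control mean, Guca1b was close to absent, and Btbd9 and Glp1r were near the control level. Of the 7 genes, 5 passed the thresholds of an adjusted p under 0.05 and a log2 fold change (log2FC) of 0.6 or more in size in NFKO against control, 1 higher and 4 lower. Among all genes tested, 0.365% passed in either direction, 0.199% as higher and 0.165% as lower, but this contrast was used to choose the genes and nothing is read from the count. In NFKO against AnkGKO 4 of the 7 genes passed, beside 0.404% of all genes tested, and in NFKO against DKO 5 passed, beside 0.615%, Cyp39a1 being the gene that passed only in the latter. In 6 of the 7 genes all 3 NFKO libraries lay above the 8 other libraries (2 genes, 2.23% of all genes tested) or all lay below them (4 genes, 1.58% of all genes tested), beside 3.82% for either side. In bulk tissue, fewer cells of a type and less RNA per cell cannot be told apart.

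Glo1, the glyoxalase gene, was at 75.3, 67.6 and 73.3 CPM in control 1, 2 and 3, against 150, 137 and 155 CPM in NFKO 1, 2 and 3. It was at 73.1 and 72.5 CPM in AnkGKO and at 73.3, 77.7 and 77.4 CPM in DKO. All NFKO libraries lay above all others, and the 8 other libraries spanned only 67.6 to 77.7 CPM. The mean of control was 72.1 ± 4.004 CPM and that of NFKO 148 ± 9.47 (SD, n = 3 each). AnkGKO averaged 72.8 ± 0.460 (SD, n = 2), and DKO averaged 76.1 ± 2.44 (SD, n = 3). The fitted fold was 2.05 against control (log2FC 1.03, standard error, SE, 0.065), 2.03 against AnkGKO and 1.94 against DKO. Control 3, which like NFKO was low in Xist, was at 73.3 CPM. The NFKO libraries differed in Pcp2 from 0.0929 to 28.3 CPM, while their Glo1 values stayed between 137 and 155 CPM.

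Btbd9, the member closest to Glo1, was at 66.4, 62.7 and 70.1 CPM across control 1 to 3 and at 82.0, 77.8 and 73.5 CPM in NFKO. It was at 65.4 and 68.1 CPM in AnkGKO and at 65.9, 65.1 and 68.4 CPM in DKO. The NFKO libraries again lay above all others, but by a smaller margin, and the log2FC against control was 0.23 (SE 0.063), below the fold threshold. Glp1r was expressed at a low level, at 3.22, 3.08 and 3.33 CPM across control 1 to 3 and at 3.69, 4.30 and 2.99 CPM in NFKO. It is the only one of the 7 genes whose NFKO libraries overlapped those of control, with a log2FC of 0.19 (SE 0.17). The AnkGKO libraries gave 2.37 and 2.39 CPM and the DKO libraries 2.75, 2.57 and 2.18 CPM, all below every control library.

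Rnps1 was at 22.6, 21.9 and 22.8 CPM across control 1 to 3, at 11.6, 9.90 and 10.7 CPM in NFKO, at 21.0 and 19.8 CPM in AnkGKO and at 22.9, 23.7 and 21.97 CPM in DKO. All NFKO libraries lay below all others, with a log2FC of -1.06 against control (SE 0.080). Pkmyt1, the inhibitory kinase of Cdk1, was at 8.03, 7.63 and 7.47 CPM across control 1 to 3 and at 2.77, 2.20 and 2.84 CPM in NFKO. It was at 6.40 and 7.71 CPM in AnkGKO and at 7.68, 8.55 and 7.55 CPM in DKO. Its NFKO libraries were likewise the lowest, with a log2FC of -1.57 (SE 0.14).

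Cyp39a1, the oxysterol hydroxylase gene, was at 15.5, 14.5 and 16.2 CPM across control 1 to 3, at 8.67, 9.01 and 8.32 CPM in NFKO, at 11.3 and 11.6 CPM in AnkGKO and at 14.4, 15.7 and 15.6 CPM in DKO. Here 3 levels were seen, with NFKO the lowest, AnkGKO above it and below every control and DKO library, and control and DKO overlapping. The log2FC of NFKO against control was -0.83 (SE 0.086). Guca1b was counted 32, 33 and 23 times in control, 3, 0 and 1 times in NFKO, 18 and 12 times in AnkGKO and 17, 27 and 34 times in DKO. The 3 NFKO libraries together held 4 counts, and each was at or below the floor of 3 counts. Relative to the TMM-scaled library sizes, Guca1b was 26.7 times as high in control as in NFKO (95% exact interval 10.1 to 100). Against NFKO it was 12.5 times as high in AnkGKO (4.42 to 49.0) and 21.9 times in DKO (8.22 to 82.4). These intervals, like those of the other count ratios below, cover counting error only. The 5 photoreceptor markers tested summed to 1.01 to 2.05 CPM over all libraries, with 1.02 to 1.72 in control and 1.22 to 1.505 in NFKO.

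**Figure D1:**
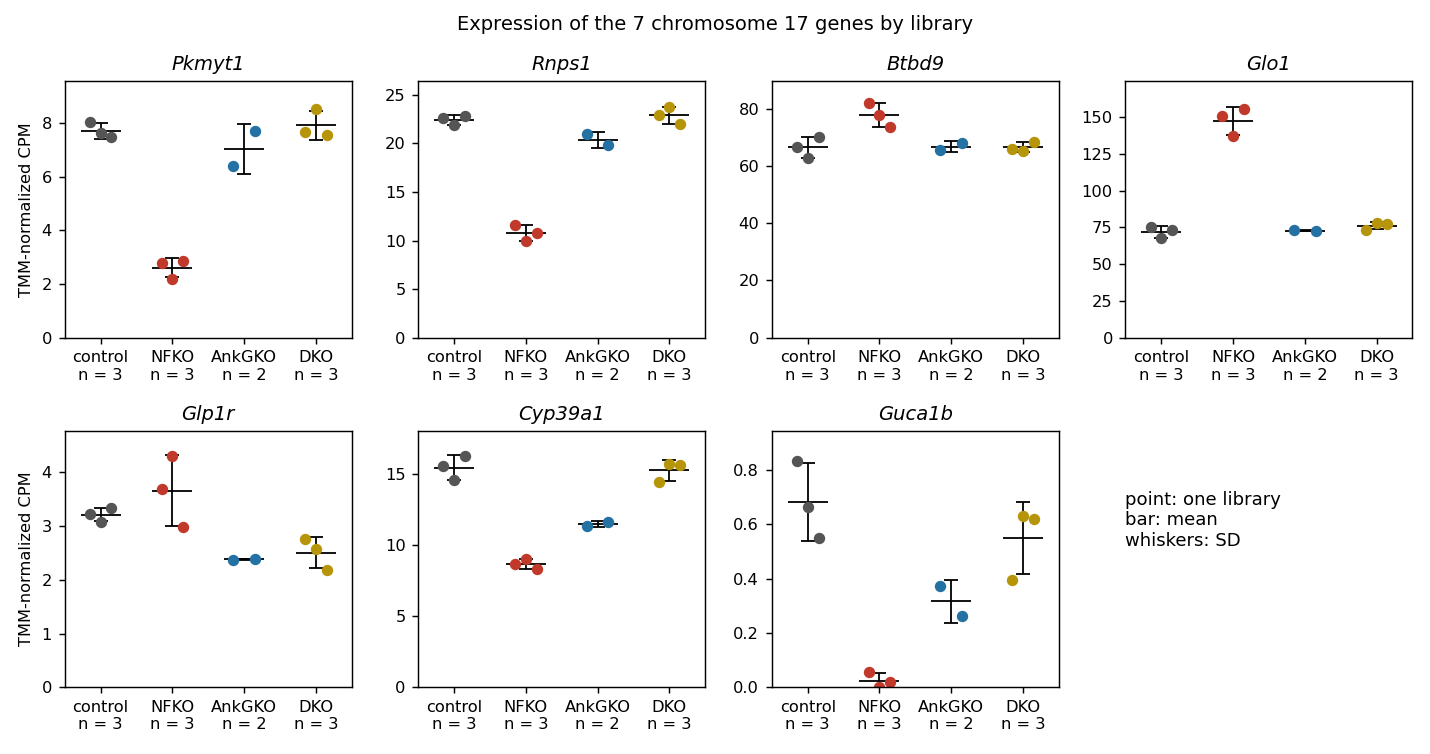
TMM-normalized CPM (y axis, from 0) of each of the 7 genes in the 3 control, 3 NFKO, 2 AnkGKO and 3 DKO libraries, with 1 point per library, a bar at the group mean and whiskers of 1 SD. The NFKO points of Glo1 lie at 137 to 155 CPM above all other libraries, those of Pkmyt1, Rnps1, Cyp39a1 and Guca1b lie below all others, and those of Glp1r overlap control.

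Variation between replicates was small for the more abundant genes, with a coefficient of variation of 0.632 to 6.42% for Glo1 and 2.56 to 5.61% for Btbd9 over the 4 genotypes, and it was 21.0 to 24.8% for Guca1b in the genotypes other than NFKO.

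The comparisons without NFKO libraries were not those used to choose the genes and were tested. The choice set NFKO against all other libraries, which can favour genes whose other genotypes are alike. Little is therefore read from a missing difference here. None of the 7 genes passed the thresholds in AnkGKO against control, DKO against control or DKO against AnkGKO, in which 0.165%, 0.0228% and 0.171% of all genes tested passed. By the quasi-likelihood test of edgeR, adjusted over all genes by Benjamini-Hochberg, the smallest adjusted p of a member was that of Cyp39a1 in AnkGKO against control, with a log2FC of -0.43 (SE 0.096, adjusted p = 0.161) and both AnkGKO libraries below all 3 control libraries. DKO against AnkGKO gave 0.41 for Cyp39a1 (SE 0.096, adjusted p = 0.230 from edgeR). With DESeq2, the adjusted p for Cyp39a1 was 0.00219 in AnkGKO against control and 0.00381 in DKO against AnkGKO, at log2FC values of -0.42 and 0.41, still under the fold threshold. Over all alternatives its adjusted p ranged from 0.00219 to 0.689 in the former and from 0.00381 to 0.710 in the latter. The unadjusted p was also under 0.05 for Glp1r (adjusted p = 0.895 from edgeR) and Guca1b (adjusted p = 0.916 from edgeR) in AnkGKO against control, at log2FC values of -0.43 and -1.10, and for none of the 7 genes in DKO against control.

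Glo1 itself differed by a log2FC of 0.015 (SE 0.073, adjusted p = 0.998 from edgeR) in AnkGKO and of 0.080 (SE 0.065, adjusted p = 0.758 from edgeR) in DKO against control. The DKO mice carried the same Cre transgene and the same floxed Nfasc alleles as the NFKO mice, and Glo1 was at 73.3 to 77.7 CPM in the former and 137 to 155 in the latter. Rnps1 and Pkmyt1 in DKO had log2FC values of 0.029 and 0.039 against control (adjusted p = 0.944 and 0.958 from edgeR). Both AnkGKO libraries lay below all control and DKO libraries in 3 of the 7 genes, Rnps1, Cyp39a1 and Guca1b, and above them in none, while 9.16% of all genes tested had the AnkGKO libraries on one side of the others.

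The neighbours of Glo1 were examined next. Within 500 kb of Glo1, 8 genes were tested, in the order Zfand3, Btbd9, Gm6402, Glo1, Dnahc8, Glp1r, Umodl1 and Abcg1. Dnahc8, which encodes an axonemal dynein heavy chain and is named Dnah8 in GENCODE, was the one other gene in this window, above the floor, with a fold like that of Glo1. It was at 2.08, 2.30 and 2.36 CPM across control 1 to 3, at 4.34, 4.70 and 4.70 CPM in NFKO, at 1.84 and 1.56 CPM in AnkGKO and at 1.05, 2.03 and 1.87 CPM in DKO. All NFKO libraries lay above all others, and the log2FC against control was 1.03 (SE 0.22), the same to 2 decimals as that of Glo1, but Dnahc8 did not pass the thresholds there. It passed in NFKO against AnkGKO (log2FC 1.43) and against DKO (log2FC 1.47). Dnahc8 and Glo1 lie on opposite strands and overlap over 2518 bases, and Dnahc8 had 45 to 253 counts per library beside 2895 to 8352 for Glo1. The libraries were made with a strand-specific kit, and since the strand setting of the counting is not given in the sources used here, reads of the overlapping part cannot be assigned with certainty.

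On the outer sides of this stretch the differences were smaller. Zfand3, a zinc finger gene next to Btbd9, had a log2FC of 0.07 in NFKO against control (SE 0.074) and Abcg1, a sterol transporter gene, of 0.00 (SE 0.068). The values of Gm6402 and Umodl1 were at or near the floor, with 2 to 9 counts of Gm6402 per library. The pseudogene Glo1-ps and other genes shared 6.51% of the 50-base words of the Glo1 transcript, and Gm50252 shared 16.1% of those of Btbd9, so that reads from such parts may not have been counted.

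**Figure D2:**
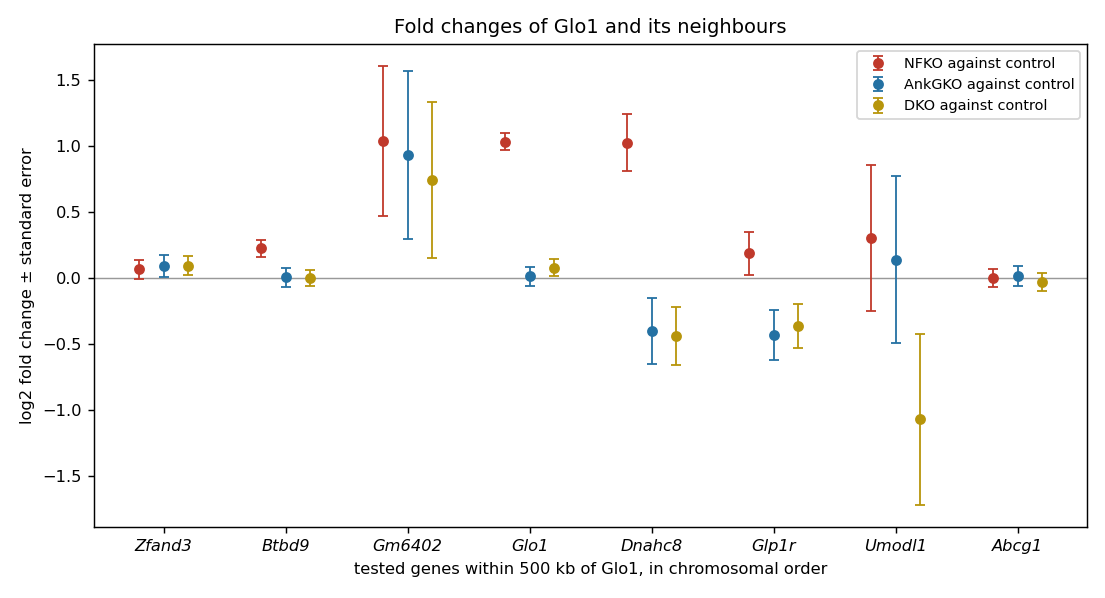
Log2FC against control (y axis, with whiskers of 1 SE) of the 8 tested genes within 500 kb of Glo1, in chromosomal order (x axis), for NFKO, AnkGKO and DKO. Glo1 and Dnahc8 both lie at 1.03 in NFKO with Btbd9 at 0.23 and Glp1r at 0.19, and Glo1 and Btbd9 lie near 0 in AnkGKO and DKO.

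None of the genes nearest to the other members had a log2FC like theirs in both direction and size. Paqr4, which overlaps Pkmyt1 on the opposite strand over 3340 bases, had 6667 to 10244 counts per library and a log2FC of 0.071 in NFKO against control (SE 0.094), while Pkmyt1 was at -1.57. Eci1, an enzyme gene of fatty acid oxidation beside Rnps1, was at -0.35 (SE 0.11), its NFKO libraries (19.1 to 21.1 CPM) below those of control (23.9 to 26.1 CPM). D330041H03Rik, which overlaps Rnps1 on the opposite strand over 1054 bases, was at 1.65 (SE 0.28) and passed the thresholds as higher. Cldn9, on the other side of Pkmyt1, was at 0.81 (SE 0.46). Slc25a27 and Rcan2, on either side of Cyp39a1, were at -0.02 and -0.15. All NFKO libraries of Rcan2 (472 to 526 CPM) lay below all others, as for Cyp39a1, but by a small margin. Mrps10, beside Guca1b, was at 0.03 (SE 0.089), and Guca1a, the neighbouring paralog of Guca1b, had no more than 0.181 CPM in any library.

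Rnps1 was further checked for reads shared with copies, since 45.6% of the 50-base words of its transcript also occur in 10 other genes. The processed copy Rnps1-ps on chromosome 6 matched 843 coding bases with 5 mismatches, an identity of 99.4%. A stretch of 90 bases, coding bases 493 to 582 of Rnps1 in GENCODE vM39 on GRCm39, is shown for both, with the mismatched bases in capitals.
Rnps1: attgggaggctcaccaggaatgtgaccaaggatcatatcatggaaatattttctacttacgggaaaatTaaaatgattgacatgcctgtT
Rnps1-ps: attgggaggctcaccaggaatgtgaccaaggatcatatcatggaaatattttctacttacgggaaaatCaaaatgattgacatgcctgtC
Reads that matched both places equally would have been set aside as not unique, so the Rnps1 counts rest on the parts that differ or that the copies lack. Pkmyt1, Cyp39a1 and Guca1b shared no 50-base word with another gene, and Glp1r shared 0.166%.

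Genes were then counted along the chromosome. Between the outermost members, from the start of Pkmyt1 to the end of Guca1b, 456 genes were tested, of which 19 passed the thresholds in NFKO against control (11 higher and 8 lower), or 4.17%, beside 0.365% of all genes tested. Without the 7 members the count was 14 of 449, or 3.12%. On the rest of chromosome 17, 3 of 364 genes passed (0.824%), and on the other chromosomes 39 of 16141 (0.242%). Of the other single chromosomes, the highest shares were those of chromosome 3 (10 of 845, 1.18%) and chromosome 11 (11 of 1378, 0.798%). The members were picked from this contrast and this chromosome, so the shares describe the stretch and were not tested. With Xist as a covariate 10 of the 456 genes passed (4 higher and 6 lower), and without control 1 and NFKO 1, the libraries of high Pcp2, a choice made after seeing the data, 10 passed (4 higher and 6 lower). Without NFKO 1 alone, 7 genes passed as higher instead of 11.

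In bins of 5 Mb, genes that passed were found from 5 to 50 Mb, except from 10 to 15 Mb, and none from 50 Mb on. The bin of Pkmyt1 and Rnps1, from 20 to 25 Mb, held 7 of 81 (8.64%), that of Glo1, from 30 to 35 Mb, 1 of 112, namely Glo1, that of Cyp39a1, from 40 to 45 Mb, 2 of 21, and that of Guca1b, from 45 to 50 Mb, 4 of 81. Of all 820 genes tested on chromosome 17, none passed in AnkGKO or DKO against control with edgeR, where 946 and 1365 of all genes tested had an unadjusted p under 0.05, and 1 passed in DKO against AnkGKO, Dlk2. With DESeq2, 5 genes between the outermost members passed in AnkGKO against control and 6 in DKO against AnkGKO.

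**Figure D3:**
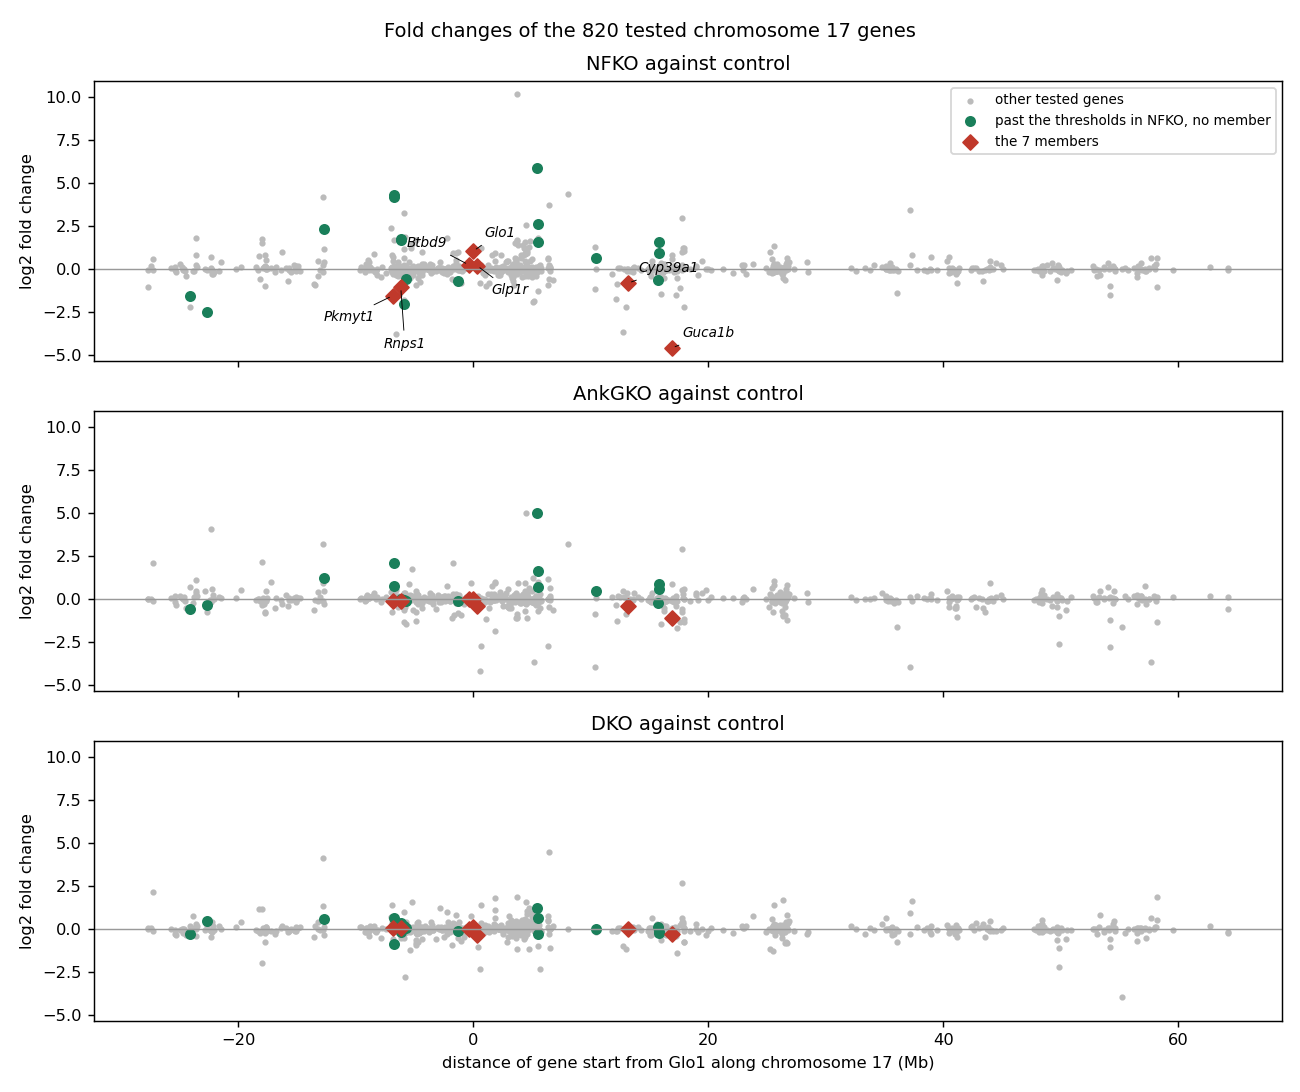
Log2FC (y axis) of the 820 tested chromosome 17 genes by distance of their start from Glo1 in Mb (x axis), in NFKO, AnkGKO and DKO against control. Diamonds mark the 7 members and larger green points the other genes that passed the thresholds in NFKO, none of which lies to the right of Guca1b, while no gene passed in AnkGKO or DKO.

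The 12 named genes between the members that are no members fell into 8 higher and 4 lower in NFKO. Close to Pkmyt1 and Rnps1, the serine protease genes Prss33 and Prss41 had few counts outside NFKO. Prss41 had 4, 3 and 5 counts in control, 98, 75 and 103 in NFKO, 13 and 2 in AnkGKO and 6, 6 and 9 in DKO. Prss33 had 56 counts over the NFKO libraries and 2 over those of control. Relative to the TMM-scaled library sizes this was a ratio of 23.1 (95% exact interval 6.09 to 195, counting error only). The gene 9930021D14Rik, named Bricd5 in GENCODE, ranged from 0.546 to 0.564 CPM over the control and from 1.70 to 2.01 CPM over the NFKO libraries, a log2FC of 1.73 (SE 0.23).

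In the same stretch, Rps2, which encodes a protein of the small ribosomal subunit, was lower, at 20.04, 19.7 and 20.1 CPM across control 1 to 3 and 4.59, 3.16 and 6.47 CPM for NFKO. Its other libraries lay at 18.6 and 19.6 CPM in AnkGKO and 20.4 to 24.9 CPM in DKO. Since 71.2% of its 50-base words occur in other genes, these are the few reads assigned to Rps2 itself. Spsb3, an adaptor gene of ubiquitin ligases, was at a log2FC of -0.62 (SE 0.089) and Ppil1, a cyclophilin gene of the spliceosome, at -0.73 (SE 0.089). For Prss41, 9930021D14Rik, Rps2, Spsb3 and Ppil1, AnkGKO and DKO had log2FC values against control of no more than 0.74 in size and adjusted p of at least 0.707 from edgeR.

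Of the genes from Pkmyt1 to Glo1 that passed in NFKO against control, both AnkGKO libraries lay on one side of all control and DKO libraries in Prss33, Rnps1 and Rps2. In each gene that passed from Gm8801 to Guca1b, both AnkGKO libraries lay on one side of all control and DKO libraries, as in 9.16% of all genes tested, an arrangement noticed after the values were seen. AnkGKO and NFKO are compared with the same control libraries, so their values are set side by side and no overlap is tested. Mut, which encodes the mitochondrial enzyme methylmalonyl-CoA mutase and is named Mmut in GENCODE, was at 57.3, 57.8 and 59.0 CPM across control 1 to 3, at 93.1, 90.5 and 84.7 CPM in NFKO, at 77.8 and 79.2 CPM in AnkGKO and at 53.5, 60.4 and 58.0 CPM in DKO. The log2FC of Mut was 0.62 in NFKO and 0.44 in AnkGKO against control, the latter with a SE of 0.069 (adjusted p = 0.0232 from edgeR), and -0.45 in DKO against AnkGKO (SE 0.068, adjusted p = 0.0221 from edgeR), where Mut stayed under the fold threshold. Leaving out any control library or either AnkGKO library raised the adjusted p for AnkGKO against control above 0.05, to between 0.0941 and 0.184, as did leaving out DKO 3 (0.0575). Leaving out either AnkGKO library, DKO 1 or DKO 3 raised that for DKO against AnkGKO, to between 0.0607 and 0.167. With the replicate block both were lost, at adjusted p = 0.109 and 0.0744 from edgeR. Over all alternatives the adjusted p ranged from 9.95e-09 to 0.262 in the former and from 1.25e-09 to 0.323 in the latter.

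Dlk2, a Notch ligand-like gene close to Guca1b, was at 4.39, 6.34 and 4.83 CPM across control 1 to 3, at 13.7, 18.4 and 13.6 CPM in NFKO, at 9.49 and 9.62 CPM in AnkGKO and at 3.92, 5.30 and 4.24 CPM in DKO. It was lower in DKO than in AnkGKO (log2FC -1.09, SE 0.19, adjusted p = 0.0484 from edgeR), with all DKO libraries below both AnkGKO libraries. This call was lost, with an adjusted p of 0.0562 to 0.288 from edgeR, on leaving out control 1 or 3, NFKO 1 or 3, either AnkGKO library, or DKO 1 or 3, and over all alternatives the adjusted p ranged from 1.17e-05 to 0.307. In AnkGKO against control its log2FC was 0.88 (SE 0.19, adjusted p = 0.133 from edgeR). Polh, a gene of a DNA polymerase that bypasses damage, lay in the opposite direction, at a log2FC of -0.68 in NFKO and -0.27 in AnkGKO (adjusted p = 0.957 from edgeR).

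Of the 12 named genes, 3 lay near the major histocompatibility complex. Of all 94 genes tested from 35 to 40 Mb, both AnkGKO libraries lay above all control and DKO libraries in 5 and below them in 11, together 17.02%, beside 9.16% of all genes tested. H2-T24, a class I-like gene, was at 2.26, 2.88 and 2.43 CPM across control 1 to 3, at 7.77, 9.55 and 5.31 CPM in NFKO, at 3.73 and 4.58 CPM in AnkGKO and at 1.87, 2.20 and 2.13 CPM in DKO. A930015D03Rik was at 0.381 to 0.650 CPM in control, 3.16 to 3.60 in NFKO, 1.65 and 1.82 in AnkGKO and 0.467 to 1.26 in DKO. Gm8801 had 1 count over the control libraries, 95 over NFKO, 31 over AnkGKO and 3 over DKO. Relative to the TMM-scaled library sizes it was 42.7 times as high in AnkGKO as in control (95% exact interval 7.12 to 1740, counting error only, adjusted p = 0.0514 from edgeR). In AnkGKO against control the adjusted p was 0.118 for A930015D03Rik and 0.543 for H2-T24 (edgeR). Over alternatives that of Gm8801 ranged from 0.00724 to 0.444.

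**Figure D4:**
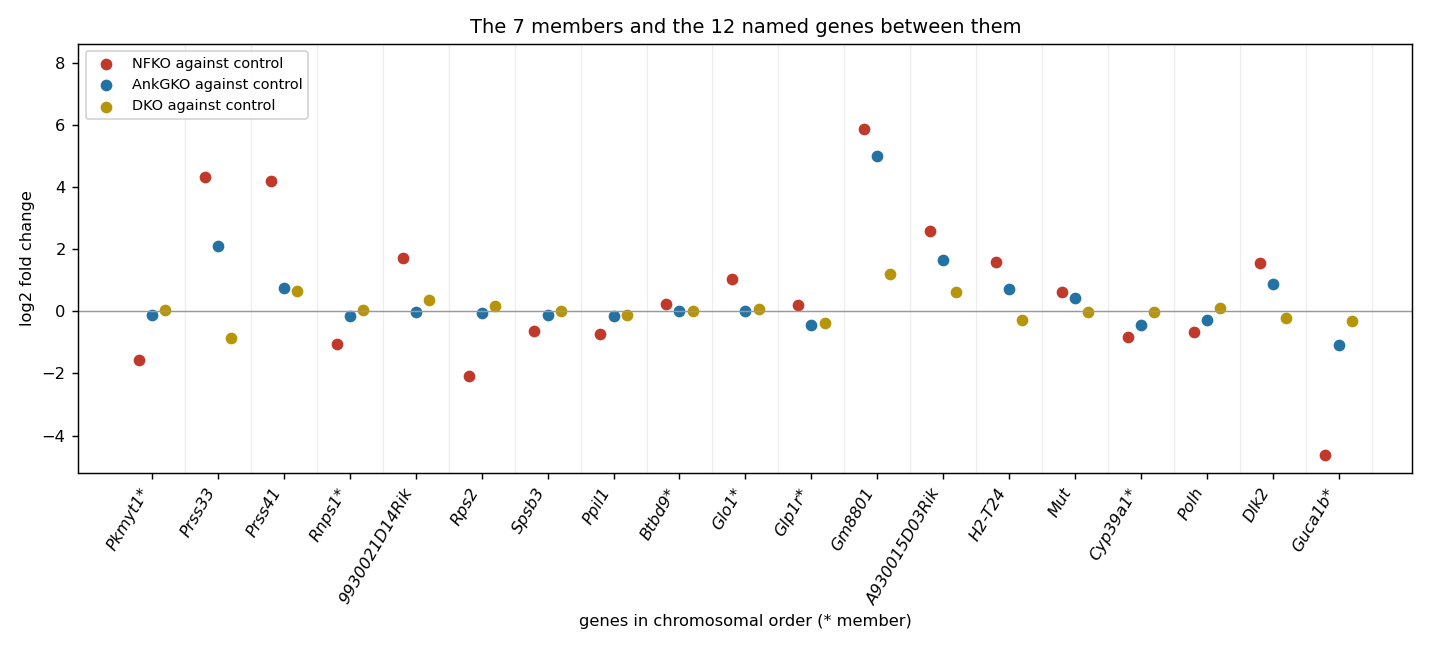
Log2FC against control (y axis) of the 7 members (asterisks) and the 12 named genes between them, in chromosomal order (x axis), in NFKO, AnkGKO and DKO. Glo1 lies at 1.03 in NFKO beside 0.015 in AnkGKO and 0.080 in DKO, whereas Mut, Dlk2 and Cyp39a1 lie at 0.44, 0.88 and -0.43 in AnkGKO.

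The other genes of the members' pathways were counted from lists chosen with earlier results known, the members left out. None of the listed genes tested passed the thresholds in NFKO, AnkGKO or DKO against control, where 0.365%, 0.165% and 0.0228% of all genes tested passed. Rapgef4 of the incretin list, which encodes a cAMP-activated exchange factor, had adjusted p under 0.05 but stayed under the fold threshold, with a log2FC of -0.55 in AnkGKO (SE 0.073, adjusted p = 0.00811 from edgeR) and -0.52 in DKO (SE 0.065, adjusted p = 0.0131 from edgeR). The median log2FC in NFKO was -0.023 for 18 genes of methylglyoxal handling, 0.009 for 19 of the exon junction complex and nonsense-mediated decay, and -0.012 for 12 of G2/M control, beside -0.005 for all genes tested. It was -0.033 for 14 genes of incretin receptor signalling, 0.036 for 14 of cullin-3 and iron handling, 0.005 for 12 of oxysterol and bile acid synthesis and 0.016 for 11 of phototransduction. Hagh, which encodes the second enzyme of the glyoxalase pathway and also lies on chromosome 17, averaged 78.9 ± 3.70 CPM for control and 67.9 ± 3.49 for NFKO (SD, n = 3 each), with a log2FC of -0.22 (adjusted p = 0.366 from edgeR). Its log2FC in AnkGKO was likewise -0.21 (adjusted p = 0.670 from edgeR), and Glo1 was at 1.03 in NFKO and 0.015 in AnkGKO.

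The genes with the most similar profiles over the 11 libraries were listed as a description, by Pearson's r of log2 CPM among 13910 genes with a mean of at least 1 CPM. The libraries share their genotype groups, which sets much of this likeness. For Glo1 they were Cyb5r2 (r = 0.980), Lyrm7 (r = 0.979) and Hddc3 (r = 0.978), none of them on chromosome 17. Pkmyt1 was most like Wdfy1 (r = 0.992), Rps2 (r = 0.989) and Rnps1 (r = 0.989), and Rnps1 was most like Pkmyt1, followed by Tpm3 (r = 0.981) and Alpk1 (r = 0.980). For Cyp39a1 they were Gne (r = 0.959), Tifa (r = 0.958) and Riok2 (r = 0.942), and for Guca1b Rnps1 (r = 0.967), Riok2 (r = 0.960) and Pkmyt1 (r = 0.952). Over the 8 libraries without NFKO, r was 0.515 for Pkmyt1 and Rnps1, 0.679 for Rnps1 and Guca1b, and 0.437 for Pkmyt1 and Guca1b. Btbd9 was most like Slu7 (r = 0.921), Rala (r = 0.913) and Npas3 (r = 0.895), and Glp1r was most like Bmp5 (r = 0.932), Gm5126 (r = 0.924) and Hexim1 (r = 0.921).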

How the data were processed

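Polyadenylated RNA was sequenced from 11 libraries. Per the labels and methods, the authors trimmed reads with Trimmomatic 0.39, aligned them to GRCm39 with STAR 2.7.11a and deposited raw counts per gene. The second table the authors deposited holds a normalized signal, the counts divided by 1 DESeq2 size factor per library (0.815 to 1.16). The labels give single-end reads, the methods paired-end reads, and the methods name 3 AnkGKO mice where 2 libraries are labelled. The summary lines of the count table were left out.

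The test was run on genes whose counts summed to 10 or more, with edgeR 4.0.16 (TMM, robust quasi-likelihood fits over 4 genotypes, Benjamini-Hochberg adjustment, R 4.3.3), and the fit was tested on simulated data. Passing meant an adjusted p under 0.05 with a log2 fold change of 0.6 or more in size. DESeq2 1.42.0 with a local dispersion fit was an alternative, as were other size factors, filters and thresholds, only the libraries compared, a replicate block, Xist as a covariate and leaving out each library. Symbols were matched to GENCODE vM39 (18294 directly, 2231 as synonyms, 2084 unmatched).

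The members, lists and tests were chosen with earlier results of these data known. Besides the members, the text names all tested genes within 500 kb of Glo1, the nearest tested neighbours of each member, up to 8 higher and 8 lower genes between the outermost members with the smallest p among those that passed in NFKO and did not overlap control, the 3 most similar profiles, and check genes. Deviations from the group mean correlated between control and NFKO libraries of the same number (r = 0.363, 0.306 and 0.175), which by a limit of 0.1 set for all pairs counts as pairing, although the labels do not say what the numbers stand for. The titles call the replicates biological, and p-values measure the spread between these libraries.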

Additional observations from a re-analysis of the deposited data

Results flagged for a closer look

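In 12 of the 7 members and 12 named genes together, NFKO against control and DKO against AnkGKO had opposite signs and no overlapping libraries. That is, all NFKO libraries lay on one side of all control libraries, and all DKO libraries on the opposite side of both AnkGKO libraries. This difference was not tested, since NFKO was used to choose the genes. The methods describe control mice as lacking Cre, so NFKO and control also differed in Cre, whereas DKO and AnkGKO mice both carried it. For the named genes the first part of the arrangement was given, since they were picked as not overlapping between NFKO and control. Shares over genes not so picked are therefore no like comparison. The same arrangement held for 2.59% of all genes tested and for 7.46% of those between the outermost members. Among the 7 members it held for Rnps1 (log2 fold change -1.06 in NFKO against control and 0.17 in DKO against AnkGKO), Cyp39a1 (-0.83 and 0.41) and Guca1b (-4.61 and 0.79).

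Among the named genes lower in NFKO it held for Rps2 (-2.07 and 0.23), Spsb3 (-0.62 and 0.15) and Polh (-0.68 and 0.36), in the same order. Among those higher in NFKO it held for Prss33 (4.32 and -2.96), Gm8801 (5.87 and -3.78), A930015D03Rik (2.59 and -1.04), H2-T24 (1.58 and -1.01), Mut (0.62 and -0.45) and Dlk2 (1.55 and -1.09). The fitted values of Prss33 and Gm8801 rest on groups with 1 to 3 counts and are no bounds. Groups of 3 or fewer libraries were not searched for outlying samples.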

How the results depend on the processing

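For the members, 5 passed in NFKO against control and 0 in AnkGKO against control, DKO against control and DKO against AnkGKO under every alternative run, including the replicate block (5 and 0). Only Cyp39a1 with DESeq2 newly had an adjusted p under 0.05, in 2 comparisons, below the fold threshold. NFKO against AnkGKO and against DKO were not run under alternatives. The fold changes kept their sign in NFKO against control for all 19 genes; in the other comparisons 34 uncalled values changed sign. Of 908 values of the 12 named genes under alternatives, 29 no longer had an adjusted p under 0.05, 12 newly had one and none reversed. A further 14, all in NFKO against control, moved by at least the SD between replicates, as did 4 of 532 values of the members. Genes passing between the outermost members in NFKO against control numbered 19 (11 higher, 8 lower). They were 10 (4 higher) with Xist as a covariate and 10 (4 higher) without the libraries of high Pcp2, an alternative chosen after seeing the data. DESeq2 gave 13 lower, a fold threshold of 1 gave 4 lower and leaving out the members 4 lower. With the replicate block, whose numbers pair control and NFKO, 16 passed. Leaving out single libraries gave 14 to 21 in all, 7 to 12 higher and 6 to 9 lower. In AnkGKO against control, 0 became 5 with DESeq2, 1 with median-ratio size factors, with edgeR's expression filter, with no filter or with no fold threshold, and 0 to 2 on leaving out single libraries. In DKO against AnkGKO, 1 became 6 with DESeq2, 2 with no fold threshold, 0 with edgeR's expression filter, only the libraries compared, Xist as a covariate or without the libraries of high Pcp2, and 0 to 1 on leaving out single libraries. In DKO against control it stayed at 0. The causes were not tested. Between AnkGKO or DKO and other groups same-numbered libraries did not correlate throughout, so there the block shares only a number. Leaving out an AnkGKO library leaves 1, which is assumed to vary like the other groups. Depth limits Guca1b, Prss33, Gm8801 and Gm6402, which had groups at or near the floor.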

Other observations

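Of the chromosome 17 genes that did not pass the thresholds in NFKO against control, 3 were singled out after their values were seen. H2-Ea-ps, at chr17:34560926-34563618 on the minus strand and 3.76 Mb from Glo1, is the copy of the class II antigen gene Ea that C57BL/6 mice carry. It had 186 counts in NFKO 1, 294 in NFKO 2, 0 in NFKO 3, 1 in DKO 3 and 0 in the other 7 libraries. The NFKO libraries, which agreed in Glo1, thus differed at this locus. Glp1r was at 2.99 CPM in NFKO 3, beside 3.69 in NFKO 1, 4.30 in NFKO 2 and 3.08 to 3.33 in control. Glo1 was highest in NFKO 3 (155 CPM).

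Prss30, a protease gene at chr17:24191100-24203700 (minus strand) close to Prss33 and Prss41, had 2, 1 and 1 counts in NFKO and 6 to 33 in every other library, the reverse of its neighbours. It passed the thresholds in NFKO against AnkGKO (log2 fold change -4.33) and against DKO (-3.96). Rnf151, at chr17:24934813-24937037 (minus strand) beside Rps2, had 31 and 43 counts in NFKO 1 and NFKO 2 but 1 in NFKO 3, and no more than 5 in any other library. Tjap1, 15.8 Mb from Glo1 and outside the named genes, did pass the thresholds in NFKO against control (log2 fold change 0.94). It was at 31.1 to 38.0 CPM in control, 61.8 to 79.9 in NFKO, 48.7 and 55.4 in AnkGKO and 23.3 to 38.1 in DKO.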
